A study of Mus musculus with 6 samples.

Results

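The genes described here are 10 that let a cell sense stretch, flow or the collagen around it: the channels Piezo1, Piezo2, Trpv4 and Trpc6, the polycystins Pkd1 and Pkd2, the discoidin domain receptors Ddr1 and Ddr2, and the caveola genes Cav1 and Cavin1. They were chosen by name from a deposited table of 33679 genes, and all 10 were found there. Gene expression was measured by mRNA sequencing of kidneys from Cd248 knockout (KO) mice and wild type (WT) mice. Every mouse had unilateral ureteral obstruction, in which 1 ureter is tied and the kidney behind it swells and scars, and no unobstructed kidney is part of the comparison. The labels name 3 knockout and 3 wild type samples. Values of KO replicate 1 and of WT replicates 1, 2 and 3 were used, and the KO replicates 2 and 3 were not analysed here. The labels mention RNA pooled from kidneys and do not say that replicates are separate mice, so p-values measure only the spread between libraries, which may be technical. The labels state no strain, age, sex or time after obstruction, and do not say in which cells Cd248 was deleted.

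Piezo and TRP channels open when the membrane is stretched or the cell swells and let calcium in. Polycystins sit in the primary cilium of tubule cells, and in humans their mutation causes polycystic kidney disease. Discoidin domain receptors are tyrosine kinases that bind native collagen. Caveolae are small membrane pits, abundant in endothelium, smooth muscle and fibroblasts, that flatten under tension. Cd248 encodes endosialin, a glycoprotein of fibroblasts and pericytes, and the title of the series names mechanotransduction.

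Values are FPKM, a fragment abundance corrected for gene length and library size, so levels of different genes can be compared per length. Read depth is unknown. The FPKM total was 304425.6 in the KO library and between 267394.4 and 285321.5 in the WT libraries. Cd248 itself was listed at 0 FPKM in the KO library and at 8.78 to 9.57 FPKM in the WT libraries, which follows the labels. The kidney transcript Umod (uromodulin, of the thick ascending limb) stood at 473 FPKM in the KO library and at 340 to 640 FPKM in the WT libraries.

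In the KO library, Ddr2, Cav1 and Cavin1 stood lower, each at 0.63 to 0.66 times the WT mean, and Pkd1 stood at 0.74 times it. Ddr1 stood at 1.20 times the WT mean. In bulk tissue, fewer cells of a type and less RNA per cell cannot be told apart. Pkd2, Piezo1 and Trpv4 lay within 0.91 to 1.11 times the WT mean. None of these differences passed the test across all genes: of 9 genes tested, 0 had an adjusted p under 0.05 (limma, with adjusted p between 0.269 and 0.81), in a comparison in which 0.723% of 16871 tested genes did, 0.64% higher and 0.083% lower. At an unadjusted p under 0.05 limma singled out 5 of the 9, namely Ddr2, Cav1, Cavin1 and Pkd1, lower, and Ddr1, higher. Of all tested genes, 10.8% had such a p, 5.63% lower and 5.14% higher. In a limma fit without the immunoglobulin genes, scaled to the same total, 6 of 16695 genes had an adjusted p under 0.05. Of these, 5 were higher and 1 lower, and 0 were among the 9. Trpc6 averaged under 0.5 FPKM over the libraries and was not tested. By the authors' deposited table, too, 0 of the 10 genes were marked as significant, with q-values from 0.09 (Ddr2) to 1, while 0.781% of its genes were. With 1 KO library the error comes from the WT libraries, and an exact permutation test of a single gene cannot go below p = 0.25.

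All 10 genes lay outside the WT range, 8 below every WT library and 2 above. Of the 9 tested genes, 7 lay below and 2 above, while 31.2% of all tested genes lay below and 28% above. When every library was scaled to the same FPKM total, 7 of the 9 lay below and 1 above, with Trpv4 inside the WT range. In that scaling 49.5% of all tested genes lay below and 13.8% above, and it shifts the median difference of all genes by -0.11 on the log2 scale. Without it, the median difference was -0.27 over the 9 genes and -0.01 over all tested genes.

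**Figure D1:**
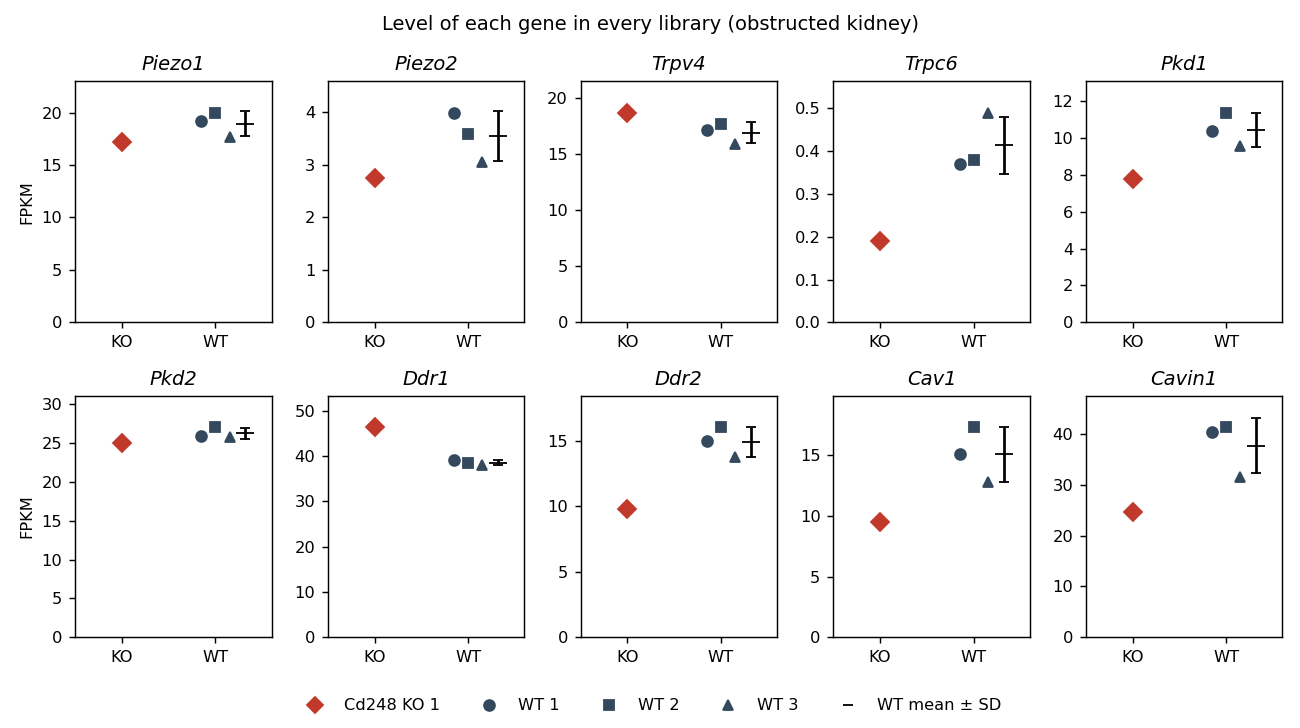
FPKM of each of the 10 genes (y axis, from 0) in the Cd248 KO library (diamond) and in WT replicates 1, 2 and 3 (circle, square, triangle), with the WT mean ± SD (n = 3) beside them. Ddr2, Cav1 and Cavin1 in the KO library sit at 9.78, 9.47 and 24.6 FPKM, below all WT points, and Ddr1 sits above them at 46.3 FPKM.

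The levels spanned a wide range within the wild type kidneys. Ddr1 was highest with a mean of 38.5 FPKM, followed by Cavin1 (37.7), Pkd2 (26.3), Piezo1 (18.95), Trpv4 (16.9), Cav1 (15.1), Ddr2 (14.9), Pkd1 (10.4), Piezo2 (3.54) and Trpc6 (0.41 FPKM). The WT ranges of Ddr1 and Cavin1 overlapped, as did those of Trpv4 and Cav1 and those of Cav1 and Ddr2. Piezo1 and Trpv4 were barely apart, with the lowest Piezo1 value at 17.68 FPKM and the highest Trpv4 value at 17.65 FPKM. In the KO library Ddr1 still ranked first, Pkd2 ranked above Cavin1, Trpv4 above Piezo1 and Ddr2 above Cav1. Among the 9 tested genes the spread between wild type libraries was smallest for Ddr1, with a coefficient of variation of 1.55%, and largest for Cav1 at 14.8%. WT replicate 3 held the lowest WT value of every tested gene.

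Windows before a listed transcript start are shown to set their sequences side by side. They belong to the 3 tested genes with the largest negative differences and to Ddr1, which stood higher. Each is the 250 bases before a RefSeq transcript start (GRCm38.p6, which has the mm10 coordinates), 5′ to 3′ on the strand of the gene, with the first listed start taken where several exist. RefSeq windows were matched for 9 of the 10 genes, all but Piezo2. Capitals mark matches, on either strand, to GGAATG (the core bound by TEAD factors, the partners of YAP), TGANTCA (AP-1), GGGCGG (Sp1) and the CArG box of serum response factor. The Ddr2 and Cavin1 windows lie wholly inside the GENCODE genes, downstream of their outermost starts, and the Ddr1 window reaches into its gene. The Ddr2 window reaches upstream only to base 170089194, while the outermost start of the gene lies at base 170110762. It may not hold the main promoter of Ddr2, so its composition and motifs describe this window only.
Cav1: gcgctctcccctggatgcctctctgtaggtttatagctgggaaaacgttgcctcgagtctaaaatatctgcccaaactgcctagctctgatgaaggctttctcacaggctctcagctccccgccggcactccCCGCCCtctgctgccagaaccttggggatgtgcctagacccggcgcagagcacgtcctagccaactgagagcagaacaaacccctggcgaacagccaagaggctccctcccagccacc
Cavin1: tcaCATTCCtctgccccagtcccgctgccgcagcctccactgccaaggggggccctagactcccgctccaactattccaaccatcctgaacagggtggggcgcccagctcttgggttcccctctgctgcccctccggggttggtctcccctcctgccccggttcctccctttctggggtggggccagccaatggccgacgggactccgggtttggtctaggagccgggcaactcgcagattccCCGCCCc
Ddr2: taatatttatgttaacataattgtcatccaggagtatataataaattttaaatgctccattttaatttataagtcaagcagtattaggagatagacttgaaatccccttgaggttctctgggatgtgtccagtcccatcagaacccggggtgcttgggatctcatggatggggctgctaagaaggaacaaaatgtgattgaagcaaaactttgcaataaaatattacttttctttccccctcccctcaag
Ddr1: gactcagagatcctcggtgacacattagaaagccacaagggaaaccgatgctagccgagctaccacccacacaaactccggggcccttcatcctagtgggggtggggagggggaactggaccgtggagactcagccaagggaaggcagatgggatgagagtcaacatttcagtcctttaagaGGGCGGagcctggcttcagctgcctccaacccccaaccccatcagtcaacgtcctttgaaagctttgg
The windows are chr6:17306085-17306334 for Cav1 (plus strand), chr11:100970618-100970867 for Cavin1, chr1:170088945-170089194 for Ddr2 and chr17:35704600-35704849 for Ddr1 (minus strand for each). The windows differ in composition, as Ddr2 has 37.6% G and C, Ddr1 56.8%, Cav1 59.6% and Cavin1 67.6%. The Ddr2 window held none of the 4 motifs. Cav1 and Ddr1 held 1 Sp1 match each, and Cavin1 held 1 Sp1 and 1 TEAD match. Over all 32851 RefSeq windows of this length, 32.7% held the Sp1 motif, 12.6% the TEAD core, 6.75% the AP-1 motif and 1.47% a CArG box. Among the first windows of the other genes, Trpc6 held 1 CArG box and Pkd2 held 1 TEAD core. Pkd1 held 4 Sp1 matches, Trpv4 held 2 and Piezo1 held 1. A match describes letters in this window only, and no motif of the 4 was found in all of the printed windows.

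Among the stretch-gated channels, the broadly expressed ones differed little. Piezo1 (ENSMUSG00000014444; mm10, chromosome 8, 122481698 to 122551329, minus strand) is the main stretch-gated channel of endothelium and epithelium. It stood at 17.2 FPKM in the KO library, against 19.2, 20.0 and 17.7 FPKM in WT replicates 1, 2 and 3. The KO value lay just under the lowest WT value, and its difference from the WT mean on the log2(FPKM + 1) scale came to -0.13, with SE 0.10 and a limma adjusted p of 0.69. In GENCODE M21, Piezo1 shares 2441 exonic bases with Ctu2, a tRNA-modifying gene on the opposite strand, and no source used here says whether counting used the strand. Ctu2 was at 2.80 FPKM in the KO library and at 2.37 to 2.66 FPKM in the WT libraries.

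Piezo2 (ENSMUSG00000041482; chromosome 18, 63010213 to 63387183, minus strand), best known as the touch channel of sensory neurons, stood at 2.75 FPKM in the KO library and at 3.99, 3.58 and 3.05 FPKM in the WT libraries. The groups did not overlap, but WT replicate 3 lay close to the KO library (difference -0.27, SE 0.15, limma adjusted p = 0.599). Trpv4 (ENSMUSG00000014158; chromosome 5, 114622152 to 114658421, minus strand), a channel opened by cell swelling and warmth, was the one of these channels with a higher KO value, at 18.7 FPKM against 17.1, 17.65 and 15.9 FPKM in WT replicates 1, 2 and 3. The difference of 0.14 (SE 0.10, limma adjusted p = 0.665) shrank to 0.01 when libraries were scaled to the same FPKM total.

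Trpc6 (ENSMUSG00000031997; chromosome 9, 8544142 to 8680741, plus strand) is a calcium channel of the podocyte, the filtering cell of the glomerulus, and in humans its mutation causes glomerular scarring. It stood at 0.19 FPKM in the KO library, against 0.37, 0.38 and 0.49 FPKM in WT replicates 1, 2 and 3. The KO value was 0.46 times the WT mean, but all values were low and the gene was not tested. On the log2 scale the difference was -0.25, or -0.82 with a pseudocount of 0.1 FPKM, and an exact two-sided permutation test gave p = 0.25. Podocyte markers are given beside it: their summed level was 132 FPKM in the KO library and 107 to 161 FPKM in the WT libraries. Of these markers, 0 of 7 lay outside the WT range, while 31.2% of all tested genes lay below it and 28% above.

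A wider list of 28 channels with a described response to stretch or swelling gave 0 calls among its 18 tested members, by limma's adjusted p. At an unadjusted p under 0.05 limma singled out 1, lower, beside 5.63% of all tested genes. The list median was -0.03, but 0.077 with a filter at 1 FPKM and 0.0125 without WT replicate 1. Of its tested members, 3 lay below every WT library and 4 above, beside 31.2% and 28% of all tested genes. The member with the smallest p was Lrrc8a, a subunit of the swelling-activated anion channel, at 7.26 FPKM in the KO library and 11.1 ± 1.33 FPKM in WT (SD, n = 3; difference -0.54, limma adjusted p = 0.356). Next came Tmem63b, a stretch-gated cation channel, at 16.8 FPKM in the KO library and 14.6 ± 0.27 FPKM in WT (0.20, limma adjusted p = 0.495). Trpv1 and Tmc2 were not analysed here.

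Genes that carry a calcium signal onward also gave 0 calls, but lay mostly below WT. Of 20 tested genes of calmodulin, calcineurin, NFAT, store-operated entry and Piezo partners, 0 were called by limma. At an unadjusted p under 0.05, 1 was lower, beside 5.63% of all tested genes. Of the 20, 11 lay below every WT library and 2 above, beside 31.2% and 28% of all tested genes. Their median difference was -0.13, which became -0.24 with the same FPKM total and -0.05 without WT replicate 2. The smallest p was that of Nfatc4, a transcription factor activated by calcineurin, at 3.68 FPKM in the KO library and 5.88 ± 0.57 FPKM in WT (SD, n = 3; -0.55, limma adjusted p = 0.307). Mdfic, a protein that binds Piezo channels and slows their closing, was at 6.96 FPKM in the KO library and 7.99 ± 0.07 FPKM in WT (-0.18, limma adjusted p = 0.537).

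Of the polycystins, Pkd1 stood lower in the KO library and Pkd2 close to wild type. Pkd1 (ENSMUSG00000032855; chromosome 17, 24549834 to 24596508, plus strand) encodes the large receptor-like subunit of the polycystin complex. It stood at 7.76 FPKM in the KO library, against 10.4, 11.4 and 9.55 FPKM in WT replicates 1, 2 and 3. All WT values were higher, and the difference was -0.38 (SE 0.12; limma adjusted p = 0.423, unadjusted p = 0.0304). Pkd2 (ENSMUSG00000034462; chromosome 5, 104459450 to 104505819, plus strand), the channel subunit, stood at 25.1 FPKM in the KO library and at 25.95, 27.0 and 25.8 FPKM in the WT libraries. Its difference of -0.06 (SE 0.08, limma adjusted p = 0.81) was the smallest of the 9 tested. The ratio of Pkd1 to Pkd2 within a library was 0.31 in the KO library, against 0.40, 0.42 and 0.37 in the WT libraries, a log2 difference of -0.32 (exact two-sided permutation p = 0.25, the smallest possible). Pkd1 shares 693 exonic bases with Tsc2, a growth regulator on the opposite strand, which stood at 8.57 FPKM in the KO library and at 8.21 to 8.80 FPKM in the WT libraries.

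Other genes of the polycystin family and of the primary cilium showed no common direction. Of 24 tested genes among 28, limma called 0, and 1 had an unadjusted p under 0.05, higher in the KO library. Of all tested genes, 5.14% were higher at such a p. The median was 0.01, and it was negative with both other scalings and without WT replicate 1, 2 or 3. Of the 24, 9 lay below and 5 above every WT library, beside 31.2% and 28% of all tested genes. Arl13b, a small GTPase of the cilium, was at 4.03 FPKM in the KO library and 4.93 ± 0.17 FPKM in WT (SD, n = 3; -0.24, limma adjusted p = 0.488). Pkhd1 (fibrocystin) was at 18.0 FPKM in the KO library and at 16.5 to 17.9 FPKM in the WT libraries, a difference of 0.06; it was named after its values were seen.

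The discoidin domain receptors stood on opposite sides of wild type. Ddr1 (ENSMUSG00000003534; chromosome 17, 35681567 to 35704621, minus strand) is the epithelial member of the pair. It stood at 46.3 FPKM in the KO library, against 39.2, 38.3 and 38.0 FPKM in WT replicates 1, 2 and 3. The WT values were close together and the KO value lay above them, a difference of 0.26 (SE 0.08; limma adjusted p = 0.419, unadjusted p = 0.0297). It was 0.13 with the same FPKM total. Ddr2 (ENSMUSG00000026674; chromosome 1, 169972307 to 170110762, minus strand) is the mesenchymal member, activated by fibrillar collagen. It stood at 9.78 FPKM in the KO library, against 14.95, 16.0 and 13.7 FPKM in the WT libraries. The KO value lay well below all of them, a difference of -0.56 (SE 0.11; limma adjusted p = 0.269, unadjusted p = 0.0063).

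The ratio of Ddr1 to Ddr2 was 4.73 in the KO library, against 2.62, 2.39 and 2.77 in WT replicates 1, 2 and 3. Both values come from the same library, so library scaling does not enter this ratio of FPKM. On the log2(FPKM + 1) scale, scaling enters only through the added 1 FPKM. There the ratio was 0.82 higher in the KO library than the WT mean, and the SD of the 3 WT libraries was 0.10. The exact two-sided permutation test gave p = 0.25, the smallest that 1 library against 3 allows. The sum of both receptors was 56.1 FPKM in the KO library and 51.8 to 54.3 FPKM in the WT libraries.

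**Figure D2:**
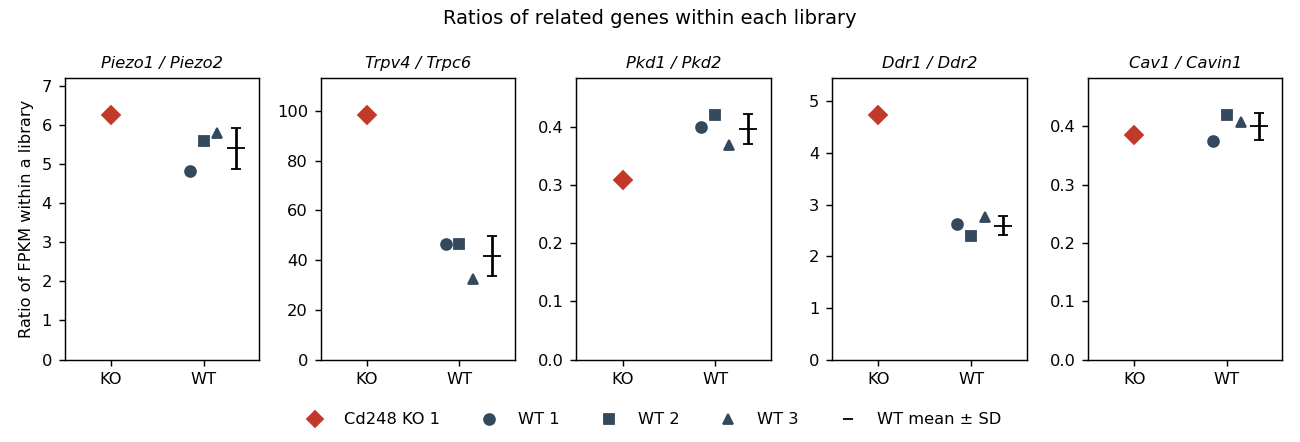
Ratio of FPKM of 2 related genes within a library (y axis, from 0) for the Cd248 KO library (diamond) and WT replicates 1, 2 and 3 (circle, square, triangle), with the WT mean ± SD (n = 3). The Ddr1 to Ddr2 ratio is 4.73 in the KO library and at most 2.77 in WT, while the Cav1 to Cavin1 ratio of 0.38 lies within the WT range.

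Collagen chains that bind these receptors were lower in the KO library. Of 10 tested chains among 11, limma called 2 lower and 0 higher, in a comparison where 0.083% of all tested genes were called lower. At an unadjusted p under 0.05, 8 were lower, beside 5.63% of all tested genes. All 10 lay below every WT library, beside 31.2% of all tested genes. Col1a1 (type I collagen) fell to 68.8 FPKM in the KO library, against 163 ± 6.21 FPKM in WT (SD, n = 3; -1.23, limma adjusted p = 0.0313). Col5a2 (type V collagen) fell to 14.4 FPKM in the KO library, against 29.8 ± 0.94 FPKM in WT (-0.998, limma adjusted p = 0.0313). Both calls were lost with a pseudocount of 0.1 FPKM (limma adjusted p = 0.0651 and 0.0647), and that of Col5a2 also with no mean-variance trend (0.0546). Both were lost as well without any 1 of the WT libraries, with limma adjusted p between 0.14 and 0.331 for Col1a1 and between 0.165 and 0.282 for Col5a2, and with the immunoglobulin genes left out (0.115 and 0.14). In the fits that lost a call the difference lay between -1.28 and -1.20 for Col1a1 and between -1.04 and -0.97 for Col5a2. The list median was -1.01, beside -0.56 for Ddr2 itself.

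Genes that act beside or after the receptors gave no calls. Of 14 tested signalling partners, limma called 0, while 4 had an unadjusted p under 0.05, all lower, and the median was -0.16. Of all tested genes, 5.63% were lower at such a p. Of the 14, 10 lay below every WT library and 1 above, beside 31.2% and 28% of all tested genes. Mmp14, a membrane protease that cleaves DDR1, was at 23.9 FPKM in the KO library and 39.9 ± 5.40 FPKM in WT (SD, n = 3; -0.71, limma adjusted p = 0.326). Tm4sf1, a tetraspanin-like protein that couples to DDR1, was at 11.8 FPKM in the KO library and 17.9 ± 1.78 FPKM in WT (-0.56, limma adjusted p = 0.315). Among 7 tested collagen receptors of other families, limma called 0, and 1 had an unadjusted p under 0.05, lower. Their median was -0.31. Of the 7, 4 lay below every WT library and 1 above, beside the same shares of all tested genes. Itga2, an integrin subunit of epithelium and platelets, was at 1.83 FPKM in the KO library and 5.22 ± 1.30 FPKM in WT (-1.12, limma adjusted p = 0.29). Itgb1, the beta subunit shared by the collagen-binding integrins, was at 143 FPKM in the KO library and 191 ± 19.4 FPKM in WT (-0.41, limma adjusted p = 0.477). Gp6, the platelet collagen receptor, was not analysed here.

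Both caveola genes stood lower in the KO library by nearly the same factor. Cav1 (ENSMUSG00000007655; chromosome 6, 17306335 to 17341452, plus strand) encodes caveolin 1, which shapes the membrane of the pit. It stood at 9.47 FPKM in the KO library, against 15.1, 17.3 and 12.8 FPKM in WT replicates 1, 2 and 3. The WT values were spread, and all exceeded the KO value (difference -0.61, SE 0.18; limma adjusted p = 0.391, unadjusted p = 0.0231). Cavin1 (ENSMUSG00000004044; chromosome 11, 100956733 to 100970887, minus strand) encodes the coat protein without which caveolae do not form. It stood at 24.6 FPKM in the KO library, against 40.35, 41.3 and 31.5 FPKM in the WT libraries. Again the groups did not overlap (-0.59, SE 0.18; limma adjusted p = 0.417, unadjusted p = 0.0293). The ratio of Cav1 to Cavin1 was 0.38 in the KO library, inside the WT values of 0.37, 0.42 and 0.41, and its log2 difference was -0.02 (0.0058 without WT replicate 2; exact two-sided permutation p = 1).

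Of 9 tested genes among 11 further caveola genes, limma called 0, while 3 had an unadjusted p under 0.05, all lower. Of all tested genes, 5.63% were lower at such a p. In this list 7 lay below every WT library and 1 above, beside 31.2% and 28% of all tested genes. The list median was -0.28. Ehd2, an ATPase that holds the neck of the pit, was at 12.9 FPKM in the KO library and 22.6 ± 2.71 FPKM in WT (SD, n = 3; -0.76, limma adjusted p = 0.271). Cavin3, another coat protein, was at 11.6 FPKM in the KO library and 18.9 ± 1.97 FPKM in WT (-0.66, limma adjusted p = 0.274). Cav2, the partner of caveolin 1, was at 15.85 FPKM in the KO library and at 16.0 to 20.2 FPKM in the WT libraries. Pacsin2, a membrane-bending protein of caveolae and endosomes, lay inside the WT range at 22.0 FPKM in the KO library; both were named after their values were seen.

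**Figure D3:**
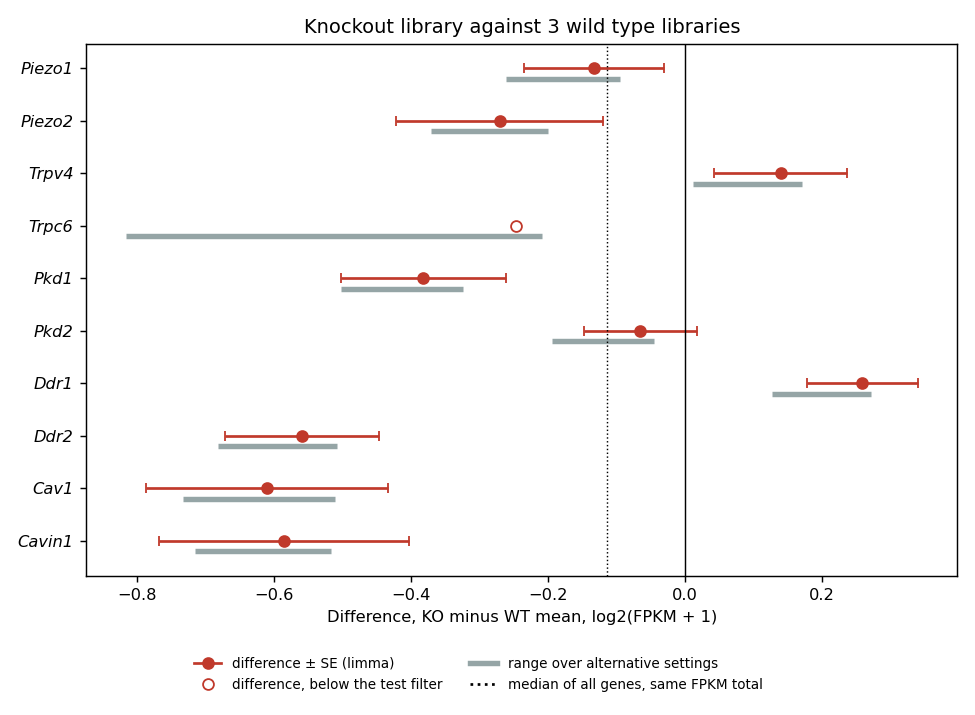
Difference between the Cd248 KO library and the WT mean (x axis, log2(FPKM + 1)) for each gene, with the SE from limma (red bar) and the range over the alternative settings (grey bar); the open circle marks Trpc6, which was not tested. Cav1, Cavin1 and Ddr2 lie between -0.61 and -0.56, and the dotted line marks the median of all genes, -0.11, under the same FPKM total.

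**Figure D4:**
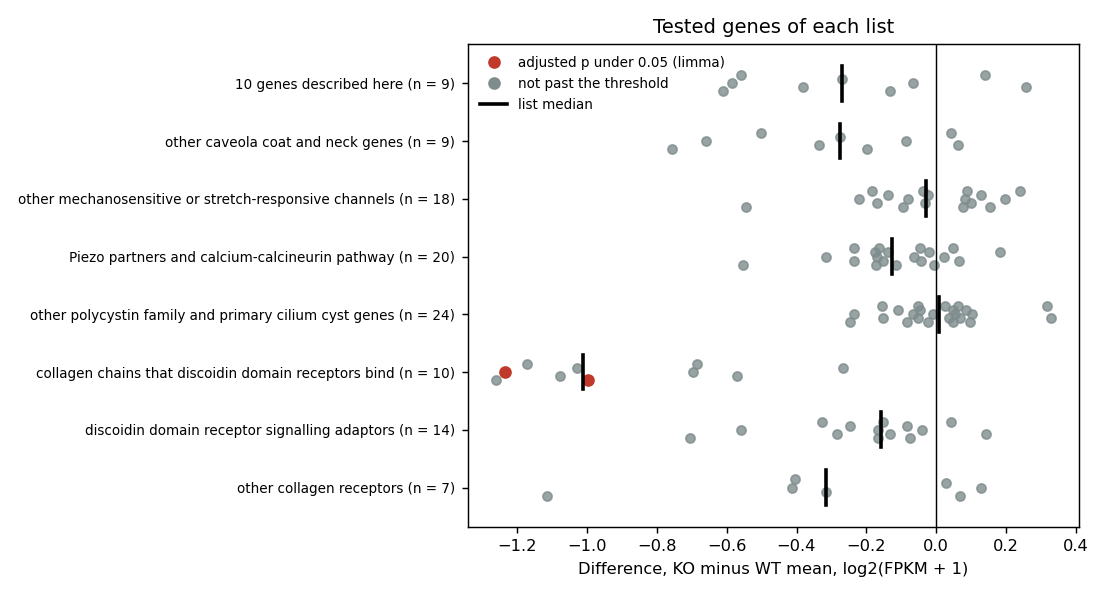
Difference between the Cd248 KO library and the WT mean (x axis, log2(FPKM + 1)) for the tested genes of each list, 1 point a gene, with the list median as a vertical bar and genes past an adjusted p of 0.05 (limma) in red. The 2 red points are Col1a1 and Col5a2 among the collagen chains, whose median is -1.01, while the median of the other channels is -0.03.

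Most markers of endothelium, fibroblasts and contractile cells, in which Ddr2 or the caveola genes are abundant, lay below every WT library too. All 12 endothelial markers did, with a summed level of 198 FPKM in the KO library and 257 to 324 FPKM in WT. Of 9 fibroblast markers 7 lay below, with a sum of 220 FPKM in the KO library and 413 to 566 FPKM in WT, and of 9 pericyte and smooth muscle markers 8 lay below, with a sum of 182 FPKM in the KO library and 352 to 416 FPKM in WT. The share of all tested genes below every WT library was 31.2%. Col1a1 and Col3a1 of the fibroblast list are also among the collagen chains. The most abundant were Plvap and Eng of endothelium (62.0 and 31.1 FPKM in the KO library, 87.7 ± 14.3 and 48.4 ± 6.12 FPKM in WT; SD, n = 3), Col3a1 and Col1a1 of fibroblasts, and Acta2 and Tagln of contractile cells. Acta2 fell to 38.9 FPKM in the KO library, against 136 ± 7.81 FPKM in WT (limma adjusted p = 0.0153; between 0.104 and 0.119 without 1 of the WT libraries, and 0.0601 with the immunoglobulin genes left out). The part of these markers in the differences of Ddr2, Cav1 and Cavin1 was not tested.

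Cav1, Cavin1 and Ddr2 can also be given as a share of these marker sums. Cav1 amounted to 4.79% of the endothelial sum in the KO library and to 5.29 ± 0.28% in WT (SD, n = 3), and Cavin1 to 12.5% in the KO library and 13.3 ± 1.37% in WT. Cavin1 was inside the WT range of this share (12.3 to 14.8%), and Cav1 was under its lowest WT share of 4.99%. Over the other sums both genes lay above every WT library. Cav1 amounted to 4.31% of the fibroblast sum in the KO library and to 3.22 ± 0.23% in WT, and to 5.19% of the pericyte and smooth muscle sum in the KO library and 3.87 ± 0.27% in WT. Cavin1 amounted to 11.2% of the fibroblast sum in the KO library and to 8.08 ± 1.09% in WT, and to 13.5% of the pericyte and smooth muscle sum in the KO library and 9.69 ± 0.66% in WT. Ddr2 amounted to 4.45% of the fibroblast sum in the KO library and to 3.20 ± 0.33% in WT. It amounted to 5.36% of the pericyte and smooth muscle sum in the KO library, above the 3.84 ± 0.06% of wild type. These sums are led by Col3a1, Col1a1, Acta2 and Tagln, whose differences of -1.17, -1.23, -1.78 and -1.16 on the log2 scale were larger than those of Ddr2, Cav1 and Cavin1.

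Markers of tubules and macrophages lay mostly inside the WT range. Markers of the loop of Henle, distal tubule and collecting duct summed to 734 FPKM in the KO library and 663 to 998 FPKM in WT. Of these 9, 1 lay below and 1 above the WT range. Most of this sum was Umod of the thick ascending limb, at 473 FPKM in the KO library. Proximal tubule markers summed to 281 FPKM in the KO library and 111 to 319 FPKM in WT, and macrophage markers to 448 FPKM in the KO library and 384 to 497 FPKM in WT. Adipocytes, which are rich in caveolae, left few transcripts, with 2 of 6 markers tested and sums of 14.7 FPKM in the KO library and 15.2 to 22.2 FPKM in WT. Most of each sum was Fabp4, at 10.5 FPKM in the KO library and 12.3 to 17.5 FPKM in WT. Lipe, the other tested marker, lay above WT at 3.27 FPKM in the KO library and 2.66 to 2.91 FPKM in WT. The untested markers each averaged under 0.5 FPKM. Urothelial markers summed to 11.6 FPKM in the KO library and 20.9 to 85.4 FPKM in WT, all 6 below. Immediate early and heat shock genes summed to 171 FPKM in the KO library and 181 to 262 FPKM in WT, 9 of 10 below. The share of all tested genes below every WT library was 31.2%. Plasma cell markers summed to 4573 FPKM in the KO library and 134 to 214 FPKM in WT. The immunoglobulin gene Igkc alone gave 4153 FPKM of the KO sum. Of the 7 markers, 6 lay above every WT library, beside 28% of all tested genes, and 1 lay below. The part of these shifts in the results above was not tested.

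The genes with profiles most like Piezo1, Ddr2 and Cav1 were found by the root mean square distance between log2(FPKM + 1) profiles over the 4 libraries, each centred on its WT mean, among 8603 genes that averaged 5 FPKM or more. For Ddr2 these were Mrvi1 (distance 0.0195), Pcdhgc3 (0.0217) and Zcchc24 (0.0223). Mrvi1 stood at 3.87 FPKM in the KO library and at 6.36, 6.57 and 5.62 FPKM in the WT libraries. For Cav1 they were Rtp4 (0.0232), Hspg2, which encodes perlecan of basement membranes (0.0303), and S1pr1, an endothelial receptor for sphingosine 1-phosphate (0.0317). Hspg2 stood at 13.7 FPKM in the KO library and at 21.6, 26.1 and 18.8 FPKM in the WT libraries. For Piezo1 they were Osbpl5 (0.0059), Arsa (0.0065) and Slc30a4 (0.0068). The distance describes these 4 libraries only.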

How the data were processed

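Per the labels' protocols, RNA was extracted with Trizol, purified on oligo(dT) beads and sequenced. The submitters' processing notes name cutadapt 1.9, FastQC, HISAT2 2.0.4 and the build mm10, without their roles. Per the file headers, the authors deposited FPKM per gene; no source used here names the program that made it. The authors' ratio (fold change), its log2 value, and their p-value and q-value columns are deposited beside it, from a test that no source used here names. Counts are absent from the table, and low FPKM of single-transcript genes, multiplied by length, fell into no steps, so depth is unknown.

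Here, log2(FPKM + 1) was fitted with limma 3.58.1 (R 4.3.3) with a mean-variance trend, for genes that averaged 0.5 FPKM or more over the 4 libraries, two-sided, with Benjamini-Hochberg adjustment over all tested genes and a threshold of 0.05. With 2 residual degrees of freedom, the fit assumes that the single knockout library varies as the wild type ones do. The fit was also run on simulated data in which the knockout column was given the wild type spread. That run therefore does not test this assumption, and its planted differences were larger than those of the 10 genes. Coordinates are from GENCODE M21 (GRCm38), which held 33572 of the 33679 gene IDs. The windows before transcript starts are from RefSeq GRCm38.p6. The genes and lists were chosen with earlier results of these data known. Beyond the 10 genes, the text names, for each pathway list, the called genes or else the 2 with the smallest p, the 2 most abundant of each marker list (not all printed), and the 3 nearest profiles of 3 genes; other names are marked, and 1 gene that this rule picks is not reported here. Shares of marker sums were added after seeing the data.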

Additional observations from a re-analysis of the deposited data

How the results depend on the processing

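Under 10 alternatives (a pseudocount of 0.1 FPKM, the same FPKM total, quantile normalization, no filter, a filter at 1 FPKM, no mean-variance trend, immunoglobulin genes left out, and leaving out each wild type replicate), 0 of 97 recomputed differences of the 10 genes changed sign. None of those tested reached the threshold; the lowest adjusted p was 0.119 (Ddr1), and 0 of the genes were called under any of these settings. Over the alternatives the difference lay between -0.73 and -0.51 for Cav1, -0.72 and -0.52 for Cavin1, -0.68 and -0.51 for Ddr2, -0.50 and -0.32 for Pkd1, and 0.13 and 0.27 for Ddr1. The count of all genes called was 122, and it was 39 with a pseudocount of 0.1 FPKM, 976 with no filter, 6 with the immunoglobulin genes left out, and between 45 and 63 without 1 wild type library (53, 63 and 45 without replicate 1, 2 and 3); the cause was not tested. The ratio of Trpv4 to Trpc6 differed by 0.39 on the log2 scale, and by 0.96 with a pseudocount of 0.1 FPKM, since Trpc6 is low. The near-zero difference of the Cav1 to Cavin1 ratio (-0.02) lay between -0.0713 and 0.0058 without 1 wild type library, with the positive sign without replicate 2. The ranges of the other ratio differences without 1 wild type library were 0.08 to 0.17 for Piezo1 to Piezo2, 0.31 to 0.43 for Trpv4 to Trpc6, -0.36 to -0.28 for Pkd1 to Pkd2 and 0.76 to 0.86 for Ddr1 to Ddr2.

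Of 56 recomputed list medians, 41 moved by less than the wild type spread, 8 moved by more and 7 changed sign, all 7 in lists with a median near 0. That of the other channels was 0.077 with a filter at 1 FPKM and lay between -0.056 and 0.0125 without 1 wild type library, with the positive sign without replicate 1. That of the cilium and polycystin genes was -0.085 with the same FPKM total, -0.017 with quantile normalization, and between -0.0129 and -0.0051 without 1 wild type library. No paired analysis was possible because the groups share only replicate number 1 among the libraries used. Without the knockout library there is no comparison. Fragment counts are absent, so how far they limit these values is unknown. Genes that averaged under 0.5 FPKM over the libraries, such as Trpc6, were not tested in the main fit.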
